A study of Mus musculus with 23 samples.

Results

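Natriuretic peptides are hormones that lower blood pressure and blood volume. The heart makes 2 of them, atrial natriuretic peptide (gene Nppa) and brain natriuretic peptide (gene Nppb), under stretch, while C-type natriuretic peptide (gene Nppc) acts mostly near the cells that release it. Corin, a membrane protease of heart muscle, cuts the atrial precursor, and furin, a protease of the secretory pathway, cuts the brain and C-type precursors among many other substrates. Npr1 and Npr2 are receptors with a guanylyl cyclase domain that make cyclic GMP, Npr1 for the atrial and brain peptides and Npr2 for the C-type peptide. Npr3 lacks that domain and removes the peptides from the circulation. In the heart these genes are known as markers and regulators of load.

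The natriuretic peptide system is described here through 8 gene start windows: the peptides Nppa, Nppb and Nppc, the receptors Npr1, Npr2 and Npr3, and the proteases Corin and Furin. They were found by gene symbol, 1 window each in both count tables, out of 41388 windows of 3 kb at gene starts. The labels name MethylMiner, in which a methyl-CpG binding protein pulls down fragments of genomic DNA that carry methylated CpG sites, and the captured fragments were sequenced. Heart (left ventricle) had 4 libraries from mice on high fibre (a diet rich in resistant starch), 3 from mice on acetate (100 mM magnesium acetate in the drinking water) and 4 from mice on the control diet, which lacks resistant starch. Spleen had 4 libraries of each diet. All mice were male C57Bl/6 animals that were housed singly, and the diets began 3 weeks before minipump surgery. What the pumps held and the age of the mice are not stated in the labels, nor which food accompanied the acetate water. Whether each library is a separate mouse is not stated either, and p-values here reflect only how much these libraries vary.

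A level here is a normalised read count in CPM, reads per M (mega) reads of a library after TMM scaling, and it stands for captured DNA relative to the other windows of that library. No unenriched input was used, so levels give no percentage of methylated CpG sites. Levels and diet comparisons within a tissue are scaled over that tissue alone, and heart against spleen is scaled over all 23 libraries.

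The stretches around the gene starts differ in how many CpG sites they offer for capture. The following sequences run from 250 bases before to 50 bases after a start site in RefSeq (build GRCm38.p6). They are given 5′ to 3′ on the strand of the gene, with each CG in capitals. They show member stretches with few CpG sites (Nppa, Corin), with an intermediate number (Npr2) and with many (Nppc, Npr1).
Nppa, chr4:148000472-148000771, plus strand: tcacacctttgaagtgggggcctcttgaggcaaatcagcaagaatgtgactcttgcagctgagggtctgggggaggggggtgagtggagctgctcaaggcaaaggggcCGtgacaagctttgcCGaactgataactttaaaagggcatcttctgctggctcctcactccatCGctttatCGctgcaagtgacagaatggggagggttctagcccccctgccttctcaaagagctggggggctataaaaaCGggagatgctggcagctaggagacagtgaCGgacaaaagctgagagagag
Corin, chr5:72504491-72504790, minus strand: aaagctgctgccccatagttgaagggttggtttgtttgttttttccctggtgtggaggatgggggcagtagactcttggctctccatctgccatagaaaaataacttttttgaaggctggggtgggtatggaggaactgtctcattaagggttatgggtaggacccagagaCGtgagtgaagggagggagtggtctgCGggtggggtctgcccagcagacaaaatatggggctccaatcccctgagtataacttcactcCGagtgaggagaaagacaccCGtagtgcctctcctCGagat
Npr2, chr4:43631685-43631984, plus strand: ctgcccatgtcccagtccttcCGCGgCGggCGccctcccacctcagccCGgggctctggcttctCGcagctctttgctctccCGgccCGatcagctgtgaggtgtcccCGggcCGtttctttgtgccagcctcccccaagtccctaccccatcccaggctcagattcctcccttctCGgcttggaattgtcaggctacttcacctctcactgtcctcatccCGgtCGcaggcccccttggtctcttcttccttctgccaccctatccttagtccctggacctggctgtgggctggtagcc
Nppc, chr1:86670524-86670823, minus strand: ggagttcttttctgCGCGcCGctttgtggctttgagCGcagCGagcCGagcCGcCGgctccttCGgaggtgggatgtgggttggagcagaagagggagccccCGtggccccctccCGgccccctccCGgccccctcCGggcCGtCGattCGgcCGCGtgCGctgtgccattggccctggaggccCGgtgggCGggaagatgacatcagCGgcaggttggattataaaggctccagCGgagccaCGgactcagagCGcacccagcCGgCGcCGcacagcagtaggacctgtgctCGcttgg
Npr1, chr3:90465817-90466116, minus strand: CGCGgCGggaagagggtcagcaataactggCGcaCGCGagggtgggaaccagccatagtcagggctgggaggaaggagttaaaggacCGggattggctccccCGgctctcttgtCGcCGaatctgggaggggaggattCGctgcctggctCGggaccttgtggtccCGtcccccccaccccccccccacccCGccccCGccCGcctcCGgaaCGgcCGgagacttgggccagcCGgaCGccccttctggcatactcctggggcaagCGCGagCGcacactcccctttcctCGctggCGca

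All 8 members matched this promoter table. The Nppa sequence (ENSMUSG00000041616) held 6 CG and that of Corin (ENSMUSG00000005220) 5. Npr2 (ENSMUSG00000028469) held 13, Npr1 (ENSMUSG00000027931) 26 and Nppc (ENSMUSG00000026241) 29. Of the members not printed, Nppb (ENSMUSG00000029019, chromosome 4) held 7 and Npr3 (ENSMUSG00000022206, chromosome 15) 6. The sites used for Npr2 (43631935) and Npr3 (11907371) lie inside the genes, whose outer starts are at 43629015 and 11907837. CG at those outer starts were not counted. The sites of Npr1 (90465866) and Nppb (147985900) also lie inside, with outer starts at 90465928 and 147985786. So does the upstream Furin site (80405436, outer start 80405441). At Npr1, Nppb and Furin the outer start falls within the stretch counted. Furin (ENSMUSG00000030530, chromosome 7) has 2 start sites 2.624 kb apart, with 7 CG at the upstream and 51 at the downstream one. CG on either strand reads the same, and 94.6% of all 32851 promoters of this length held at least 1, with a median of 7. As many CG as at Nppc or more were found in 12.9% of promoters, as many as at Npr1 or more in 16.9%, and as many as at Corin or more in 62.0%. The deposited window of 3 kb is longer than the printed stretch and how it is placed on the start site is not stated, so CG outside the stretch also enter the levels. Nppa and Nppb are neighbours on chromosome 4 of the mouse, with start sites 14.822 kb apart on the same strand.

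The levels did not follow these CG counts. In heart the mean level over all 11 libraries was 51.5 CPM at Furin, 44.1 at Corin, 42.8 at Npr1, 41.5 at Npr2, 18.5 at Nppc, 15.3 at Nppb, 11.8 at Nppa and 10.8 at Npr3, against a median of 12.2 CPM over the 33562 windows tested in heart. Corin, with 5 CG, thus lay above 91.3% of tested heart windows, and Nppc, with 29, above 68.3%. Among all heart windows whose promoter held 3 to 5 CG the median level was 12.3 CPM, with quartiles of 5.80 and 21.4 CPM (2089 windows). In spleen Furin had 54.4 CPM, Npr1 42.5, Npr2 33.5, Corin 24.1, Nppb 8.10, Nppa 4.39, Nppc 4.27 and Npr3 3.72, against a median of 8.50 CPM over 24871 tested windows. In heart Corin, Npr1 and Npr2, each set against the next, and Nppa and Npr3 differed by less than the SD over libraries, and so did Nppa, Nppc and Npr3 in spleen.

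Total counts were 4.12 to 8.60 M (mega) per heart library and 4.36 to 9.87 M per spleen library, with a median of 26 to 70 and of 13 to 29 reads per window. The member windows held from 39 reads (Npr3) to 419 reads (Furin) per heart library and from 14 (Nppc) to 576 (Furin) per spleen library, so Nppa, Nppb, Nppc and Npr3 in spleen rest on few reads. A satellite-like window, Gm10800, took 17.3% to 21.3% of the counts of high fibre hearts, 22.1% to 42.4% of those of acetate hearts and 36.8% to 50.05% of those of control hearts. Heart acetate replicate 1 stood apart with the lowest median count of the heart libraries, 26. As a check of the tissue labels, marker windows were counted, to be read against all windows, of which 49.1% passed as higher in heart and 37.9% as lower. Less captured DNA in heart than in spleen was found at 12 of 14 cardiomyocyte marker windows (Mybpc3, Myh6, Myh7 and others). At 1 (Myl7) there was more. Of 14 leukocyte marker windows 9 had more in heart and 2 (Cd8a and Cd48) less. These counts lean on the scaling: with library totals as the scale 6 cardiomyocyte windows were higher and 5 lower in heart, and with DESeq2 size factors 2 were higher and 10 lower.

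The study asks whether high fibre or acetate changes DNA methylation, first at these genes in the heart on high fibre. The windows of Npr1, Npr2 and Furin held less captured DNA in high fibre than in control hearts, by about the same amount: both cyclase receptors and the protease that trims peptide precursors. At all 3 the high fibre libraries lay below the control libraries, as in 17.2% of tested windows. In whole tissue a change in the mix of cells and a change of methylation within a cell type cannot be told apart. The other 5 members did not pass the test, and Corin was the member whose level lay above control. Across all windows 26.2% passed the same test, 12.6% higher and 13.6% lower, so 3 called among 8 members says little about these genes in particular.

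**Figure D1:**
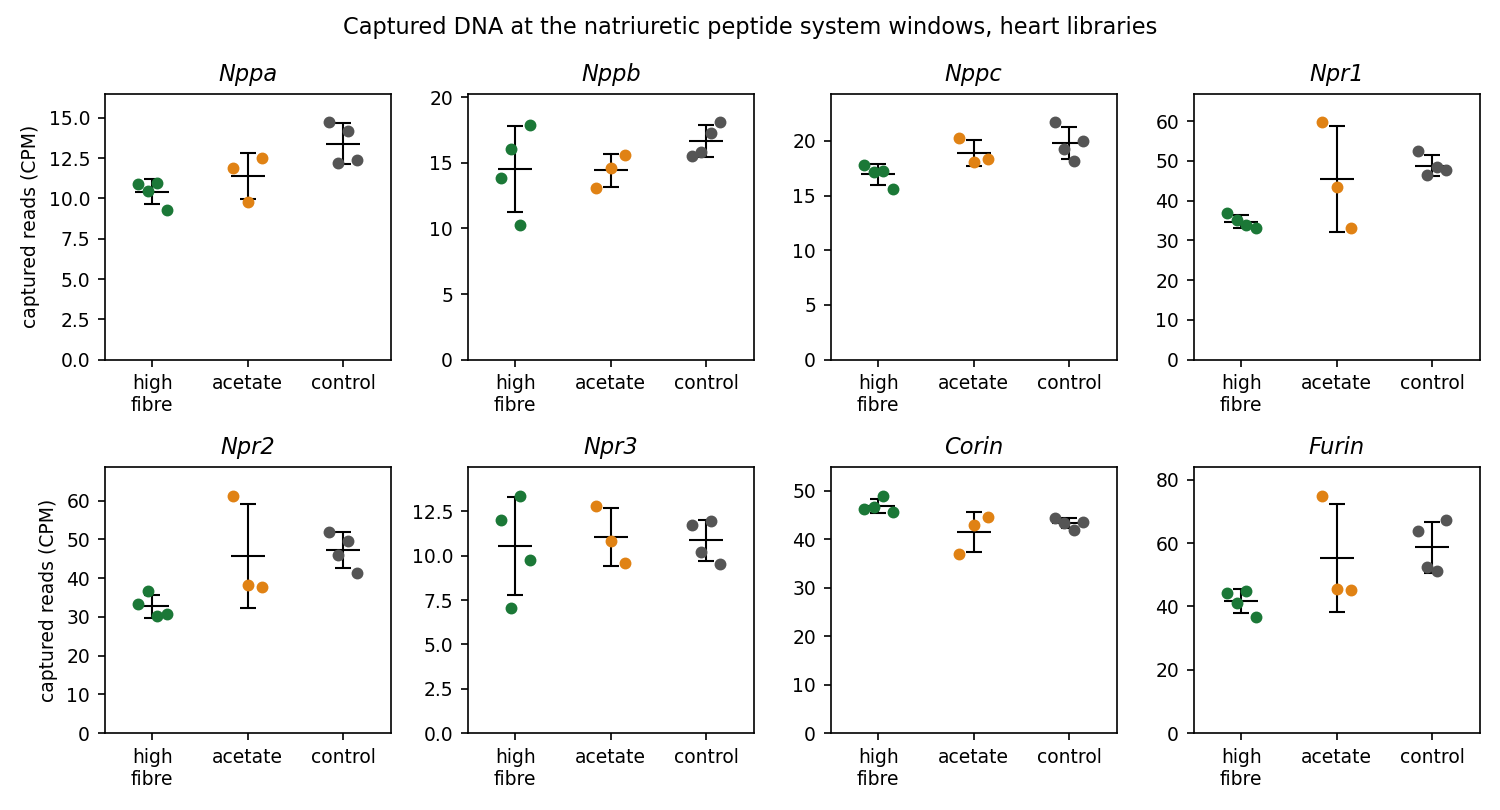
Level of each member window in the 11 heart libraries, in CPM on a linear axis from 0, by diet in the order high fibre, acetate, control. Points are libraries and bars are group means ± SD. Npr1, Npr2 and Furin show 4 high fibre libraries below all 4 control libraries, and 1 acetate library, replicate 1, above the highest control.

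Among the peptides, Nppa had 10.9, 10.5, 10.97 and 9.30 CPM in the high fibre hearts (replicates 1 to 4), against 14.7, 12.2, 14.2 and 12.4 CPM in the control hearts. Every high fibre heart lay below every control heart, a pattern that 17.2% of tested windows shared, yet the difference of -0.35 on the log2 scale (SE 0.14, edgeR adjusted p = 0.0614) did not pass. Without acetate replicate 1, which enters the shared estimate of spread, edgeR called 14335 windows instead of 8788. In that fit the adjusted p of Nppa was 0.0388. Nppb, the gene beside it, had 13.8, 16.1, 10.3 and 17.9 CPM on high fibre and 15.5, 15.8, 17.3 and 18.1 CPM on control, overlapping groups with a difference of -0.19 (SE 0.15, edgeR adjusted p = 0.316). High fibre hearts had 17.8, 17.2, 17.2 and 15.6 CPM at Nppc, against 21.7, 19.3, 18.2 and 20.02 CPM in control hearts. These groups did not overlap, but the difference of -0.23 (SE 0.12, edgeR adjusted p = 0.133) did not pass.

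Among the receptors, Npr1 had 36.9, 35.1, 33.9 and 33.1 CPM in high fibre hearts, against 52.6, 46.5, 48.6 and 47.7 CPM in control hearts. The lowest control heart lay well above the highest high fibre heart, and the level was 1.40-fold lower on high fibre (log2 -0.49, SE 0.13, edgeR adjusted p = 0.0143). Npr2 had 33.3, 36.7, 30.2 and 30.6 CPM in high fibre hearts and 52.0, 45.9, 49.7 and 41.4 CPM in control hearts, again without overlap. The change was 1.44-fold, lower on high fibre (log2 -0.53, SE 0.14, edgeR adjusted p = 0.0120). The clearance receptor Npr3 did not share this: its level was 11.99, 7.05, 13.4 and 9.73 CPM on high fibre and 11.7, 10.2, 11.98 and 9.53 CPM on control, with both the highest and the lowest library on high fibre. Its difference was -0.03, with an approximate 95% interval of -0.38 to 0.32, and the difference between receptors was not tested.

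Of the proteases, Furin had 44.3, 41.0, 45.0 and 36.5 CPM in high fibre hearts and 63.7, 52.5, 51.0 and 67.3 CPM in control hearts. Control replicates 1 and 4 were the high ones, the groups did not overlap, and the level was 1.40-fold lower on high fibre (log2 -0.49, SE 0.14, edgeR adjusted p = 0.0189). Corin had 46.2, 46.6, 49.0 and 45.5 CPM in high fibre hearts, against 44.4, 43.4, 41.9 and 43.5 CPM in control hearts. Every high fibre heart lay above every control heart, as in 16.6% of tested windows, with a difference of 0.11 (SE 0.10, edgeR adjusted p = 0.417). The median difference of the 8 members was -0.29, against 0.02 over all tested windows.

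**Figure D2:**
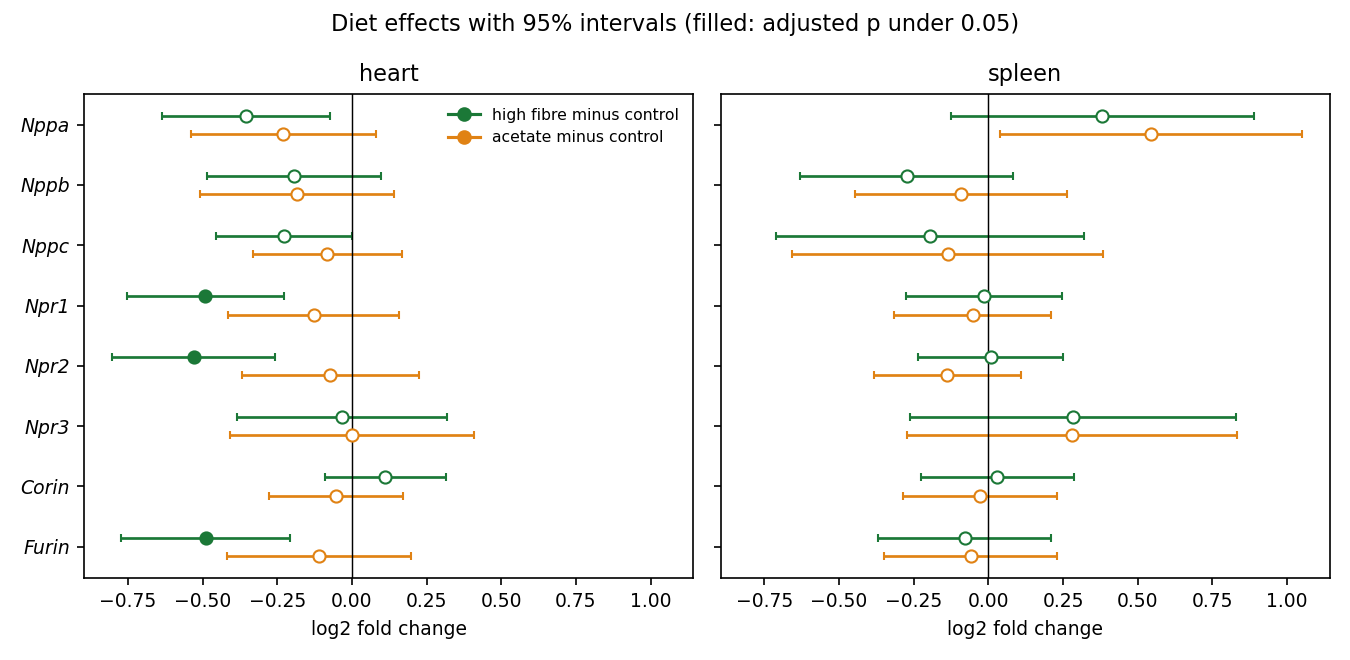
Log2 difference of each member window, with approximate 95% intervals (1.96 SE), for high fibre minus control and acetate minus control in heart and spleen. An interval can leave out 0 where the unadjusted p is above 0.05, as at Nppc for high fibre minus control in heart. Filled points passed edgeR's test at an adjusted p of 0.05. The filled points are Npr1, Npr2 and Furin for high fibre minus control in heart, at -0.49, -0.53 and -0.49.

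These 3 calls depend on how libraries are made comparable. With library totals as the scale, where the median of all windows moved to 0.69, the values were 0.20 at Npr1, 0.17 at Npr2 and 0.20 at Furin, still below that median but with the sign turned. With cyclic loess Npr2 passed (-0.30) and Npr1 and Furin did not (-0.26 and -0.25), while Corin passed as higher (0.35). With 1 surrogate variable in the fit 0 members passed, and 231 windows in all. Leaving out high fibre replicate 4, or control replicate 1, also left 0 members past the threshold, with adjusted p of 0.0565 and 0.0567 for Npr1, 0.0517 and 0.0526 for Npr2 and 0.0795 and 0.0692 for Furin. Furin alone of the 3 also failed without control replicate 4 (-0.42, edgeR adjusted p = 0.0578).

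**Figure D3:**
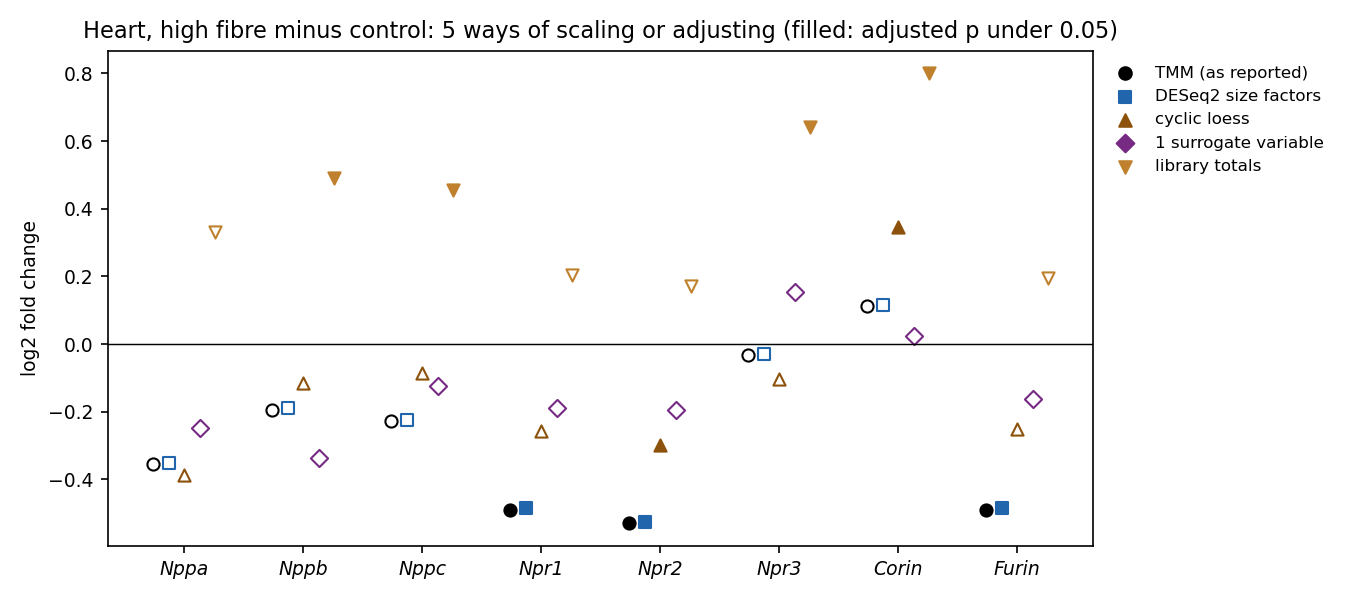
Log2 difference of each member window for high fibre minus control in heart under 5 ways of scaling or adjusting the libraries. Each colour and shape is one way, and filled points passed at an adjusted p of 0.05. Library totals put all 8 members above 0, for example Npr1 at 0.20, while the other ways leave Npr1, Npr2 and Furin below 0.

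A measure that needs no scaling is the share that each window takes of the reads of the 8 windows together, 978 to 1818 reads per heart library. Corin took 22.5% ± 0.839 of them in high fibre hearts (SD, n = 4, from 21.5% to 23.3%), 17.5% ± 4.22 in acetate hearts (n = 3, from 12.7% to 20.6%) and 16.8% ± 0.662 in control hearts (n = 4, from 16.1% to 17.7%). Npr1 took 16.7% ± 0.408 in high fibre hearts, 18.4% ± 2.77 in acetate hearts and 18.9% ± 0.376 in control hearts. The Corin shares of high fibre hearts lay above all other heart libraries, and the Npr1 shares of high fibre hearts lay below all control hearts. At Npr2 and Furin, also called above, the ranges overlapped. Npr2 took 14.4% to 17.5% in high fibre and 15.9% to 19.6% in control hearts, and Furin 18.4% to 21.4% and 20.2% to 25.9%. How often shares of other windows separate in this way is not given here. For Nppc the shares were 8.13% ± 0.18, 7.84% ± 0.788 and 7.65% ± 0.316 in high fibre, acetate and control hearts. The shares add to a fixed total, so they say how the members moved against each other and not which of them changed.

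Marker windows of other cell types moved in the same libraries. Against 13.6% of all windows lower and 12.6% higher on high fibre, 8 of 14 leukocyte marker windows were lower and 2 higher, with summed levels of 324 to 387 CPM in high fibre hearts and 410 to 472 CPM in control hearts. Cardiomyocyte marker windows were lower at 5 of 14 and higher at 0 (424 to 469 against 456 to 542 CPM), endothelial ones lower at 1 of 8 and higher at 0 (130 to 151 against 142 to 160 CPM), and fibroblast ones higher at 3 of 8 and lower at 0 (267 to 279 against 242 to 258 CPM). No marker window was without reads. With library totals as the scale 0 of the leukocyte, cardiomyocyte or endothelial windows were lower, and 5, 6 and 7 were higher. With cyclic loess 3 leukocyte windows were lower and 2 higher, 4 cardiomyocyte windows lower and 1 higher, 0 endothelial windows passed and 3 fibroblast windows were higher. With 1 surrogate variable 0 leukocyte, endothelial or fibroblast windows passed, and 1 cardiomyocyte window was higher. The part of cell composition and of the Gm10800 share in the result was not tested.

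Acetate was set against control to see whether a fermentation product of fibre goes with similar values. No member passed: edgeR's test called 0 of 33562 windows in heart (0%), DESeq2 also called 0, and 840 windows had an unadjusted p under 0.05. Npr1 had 59.8, 43.5 and 33.2 CPM in acetate hearts, Npr2 61.3, 38.1 and 37.8 CPM, and Furin 74.98, 45.5 and 45.2 CPM (replicates 1 to 3), against the control values given above. Replicate 1 lay above the highest control at all 3 windows and the other 2 acetate hearts below the lowest control, so the acetate hearts stood on both sides. The differences were -0.13 (95% interval -0.41 to 0.16) at Npr1, -0.07 (-0.37 to 0.22) at Npr2 and -0.11 (-0.42 to 0.20) at Furin. Corin had 36.9, 43.0 and 44.6 CPM in acetate hearts, lowest in replicate 1, with a difference of -0.05 (-0.28 to 0.17). Acetate hearts had 11.9, 9.75 and 12.5 CPM at Nppa (difference -0.23, -0.54 to 0.08), 13.1, 14.6 and 15.6 CPM at Nppb (-0.18, -0.51 to 0.14), 20.2, 18.1 and 18.4 CPM at Nppc (-0.08, -0.33 to 0.17) and 12.8, 10.8 and 9.57 CPM at Npr3 (0.00, -0.41 to 0.41). Intervals of this width do not show that acetate and control hearts were alike. Without acetate replicate 1 edgeR called 694 windows and 0 members, and the differences became -0.36 at Npr1 (edgeR adjusted p = 0.0712), -0.32 at Npr2 (edgeR adjusted p = 0.114) and -0.37 at Furin (edgeR adjusted p = 0.0533).

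High fibre against acetate in heart gave 470 windows past the threshold (1.4%), among them 0 members. The smallest edgeR adjusted p over all windows was 0.0488, close to the threshold. Among the members the smallest adjusted p was 0.0764, at Npr2, with a log2 difference of -0.46 (SE 0.15, edgeR). High fibre hearts lay below all acetate hearts at Npr2, Furin and Nppc, as in 11.1% of windows, and above them at Corin, as in 10.3%. Npr1 differed by -0.36 (SE 0.15, edgeR adjusted p = 0.124) and Furin by -0.38 (SE 0.16, edgeR adjusted p = 0.131). Without acetate replicate 3 all 3 passed, with edgeR adjusted p of 0.0226 at Npr2, 0.0137 at Npr1 and 0.0458 at Furin. That fit called 4542 windows in all, against 470 with every library. Without acetate replicate 2 Npr2 passed (edgeR adjusted p = 0.0375), in a fit that called 2961 windows. Without acetate replicate 1 none of the members passed, and the differences were -0.22 at Npr2, -0.14 at Npr1 and -0.12 at Furin. Over all windows that fit called 100, and the fit without high fibre replicate 4 called 4. Leaving out control replicate 2, 3 or 4, or high fibre replicate 1, 2 or 3, gave 0 windows. High fibre and acetate were each set against the same control hearts, so the 2 sets of differences from control are not independent.

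In spleen edgeR called 0 of 24871 windows (0%) in each of the 3 diet comparisons. At an unadjusted p under 0.05 there were 502 windows for high fibre minus control, 873 for acetate minus control and 824 for high fibre minus acetate, and DESeq2 called 0, 1 and 0 windows in that order, none of them a member. Nppa had the largest member difference: 4.98, 5.55, 3.19 and 4.51 CPM in high fibre spleens and 4.22, 5.27, 6.54 and 4.87 CPM in acetate spleens, against 2.69, 4.90, 3.30 and 2.66 CPM in control spleens. Control replicate 2 lay among the other diets, so the groups overlapped. The differences from control were 0.38 on high fibre (SE 0.26, edgeR adjusted p = 1) and 0.54 on acetate (SE 0.26, edgeR unadjusted p = 0.0343, adjusted p = 1).

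**Figure D4:**
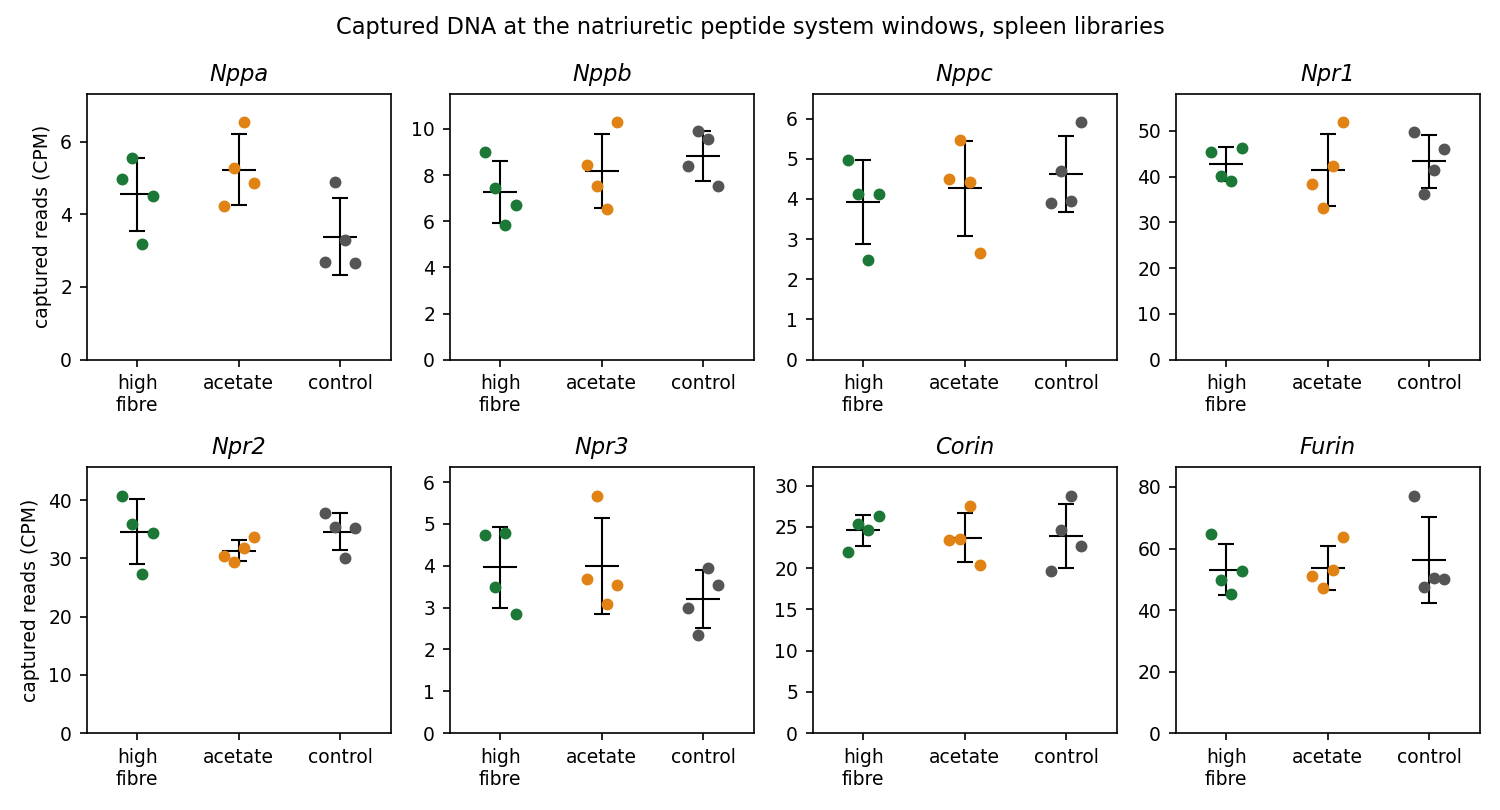
Level of each member window in the 12 spleen libraries, in CPM on a linear axis from 0, by diet in the order high fibre, acetate, control. Points are libraries and bars are group means ± SD. The groups overlap at every member, and the highest Furin value, 77.2 CPM, belongs to control replicate 1.

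At the members that were lower in high fibre hearts no difference passed in spleen. Npr1 had 45.4, 40.3, 39.0 and 46.3 CPM in high fibre spleens, 38.5, 33.1, 42.3 and 51.9 CPM in acetate spleens and 49.7, 36.2, 41.5 and 46.1 CPM in control spleens, so the diets spanned much the same range. Its difference of high fibre from control was -0.01, with a 95% interval of -0.28 to 0.25. Npr2 had 40.8, 36.0, 27.3 and 34.3 CPM on high fibre, 30.5, 29.4, 31.7 and 33.7 CPM on acetate and 37.7, 35.4, 30.1 and 35.2 CPM on control. For Npr2 the interval was -0.24 to 0.25. Furin had 64.6, 49.8, 45.2 and 52.6 CPM on high fibre, 51.0, 47.1, 53.1 and 63.8 CPM on acetate and 77.2, 47.6, 50.5 and 50.1 CPM on control. Its interval of high fibre from control was -0.37 to 0.21. Corin stayed between 19.6 and 28.8 CPM in all 12 spleens, both ends of that range being control spleens. Nppb ranged from 5.85 to 10.3 CPM, Nppc from 2.48 to 5.91 CPM and Npr3 from 2.35 to 5.68 CPM over all spleens.

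Whether the diet differences themselves were unlike in heart and spleen was tested in 1 fit over all libraries. For high fibre minus control 19 of 33982 windows passed (0.0559%), none of them a member, while 5570 had an unadjusted p under 0.05. Nppa had the largest member value, -0.74 (SE 0.28, unadjusted p = 0.00882, edgeR adjusted p = 0.199): its level was lower than control in high fibre hearts and higher in high fibre spleens. Npr2 had -0.54 (SE 0.21, edgeR adjusted p = 0.222), Npr1 -0.47 (SE 0.22, edgeR adjusted p = 0.287) and Furin -0.41 (SE 0.25, edgeR adjusted p = 0.397). For acetate minus control 0 windows (0%) passed with edgeR and 0 with DESeq2, and 1554 had an unadjusted p under 0.05. Nppa again had the largest value, -0.74 (SE 0.29, unadjusted p = 0.0114, edgeR adjusted p = 1), in a comparison that uses the same control libraries.

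Heart and spleen were then compared over all diets. Relative to spleen, heart held more captured DNA at Nppc, Npr3 and Nppa and less at Furin, Npr1, Npr2, Corin and Nppb, and all 8 windows passed the test with TMM scaling. Nppc alone of the 8 kept its direction and its call under every scaling, filter and test tried and with each library left out. The share of all windows that passed was 86.9%, 49.1% higher and 37.9% lower, so a call by itself says little about these members. The median over all windows was 0.23, and with library totals 1.31, so values are best read against that.

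Nppc, scaled over both tissues, had a lowest, median and highest level of 10.3, 12.1 and 14.4 CPM in the 11 hearts and 3.47, 6.18 and 8.59 CPM in the 12 spleens. Every heart lay above every spleen, which 14.4% of windows showed, and the level was 1.92-fold higher in heart (log2 0.94, SE 0.11, edgeR adjusted p = 2.01e-10). Of the reads of the 8 windows Nppc took 7.88% ± 0.458 in heart (n = 11, from 6.95% to 8.47%) and 2.46% ± 0.629 in spleen (n = 12, from 1.39% to 3.49%). Npr3 had 4.64, 7.17 and 8.83 CPM in heart and 3.38, 5.24 and 7.65 CPM in spleen, overlapping ranges with a difference of 0.38 (SE 0.13, edgeR adjusted p = 0.00582), but -0.0020 and no call with cyclic loess. Nppa had 6.14, 7.84 and 9.77 CPM in heart and 3.87, 6.89 and 9.16 CPM in spleen, a difference of 0.26 (SE 0.12, edgeR adjusted p = 0.0308) that lies close to the median of all windows. The Nppa call was lost with cyclic loess (0.018) and in 5 of 23 fits that left out 1 library, those without heart acetate replicate 3, spleen acetate replicate 1, spleen control replicate 1 or 4 or spleen high fibre replicate 3 (edgeR adjusted p up to 0.0727).

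Furin was lower in heart at every library, with 24.1, 30.1 and 49.4 CPM against 63.2, 74.2 and 120.2 CPM in spleen, or 2.36-fold (log2 -1.24, SE 0.11, edgeR adjusted p = 3.26e-13). Npr1 had 21.8, 28.8 and 39.4 CPM in heart and 44.5, 60.4 and 80.9 CPM in spleen, also without overlap, as in 18.2% of windows (log2 -1.15, SE 0.10, edgeR adjusted p = 1.44e-13). Npr2 had 19.9, 25.2 and 40.4 CPM in heart and 38.1, 51.0 and 63.6 CPM in spleen, where the highest heart, acetate replicate 1, passed the lowest spleen (log2 -0.85, SE 0.09). With library totals Furin and Npr1 were at -0.10 and -0.02 and did not pass, and Npr2 was at 0.27. With cyclic loess the calls at Furin, Npr1 and Npr2 were not all kept. Corin had 24.3, 29.3 and 32.3 CPM in heart and 30.5, 34.3 and 42.7 CPM in spleen (log2 -0.28, SE 0.07), but 0.87 with library totals and 0.44 with cyclic loess, both past the threshold in the other direction. Nppb had 6.77, 10.3 and 11.98 CPM in heart and 8.17, 11.6 and 16.04 CPM in spleen (log2 -0.25, SE 0.11, edgeR adjusted p = 0.0231), and 0.88 with library totals. The Nppb call was lost with DESeq2 size factors (-0.12), the DESeq2 test (-0.12), cyclic loess (-0.030) and the replicate block (-0.18). It was also lost in 4 of 23 fits that left out 1 library, those without heart control replicate 1, heart high fibre replicate 3, spleen acetate replicate 4 or spleen high fibre replicate 1 (edgeR adjusted p up to 0.0835).

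**Figure D5:**
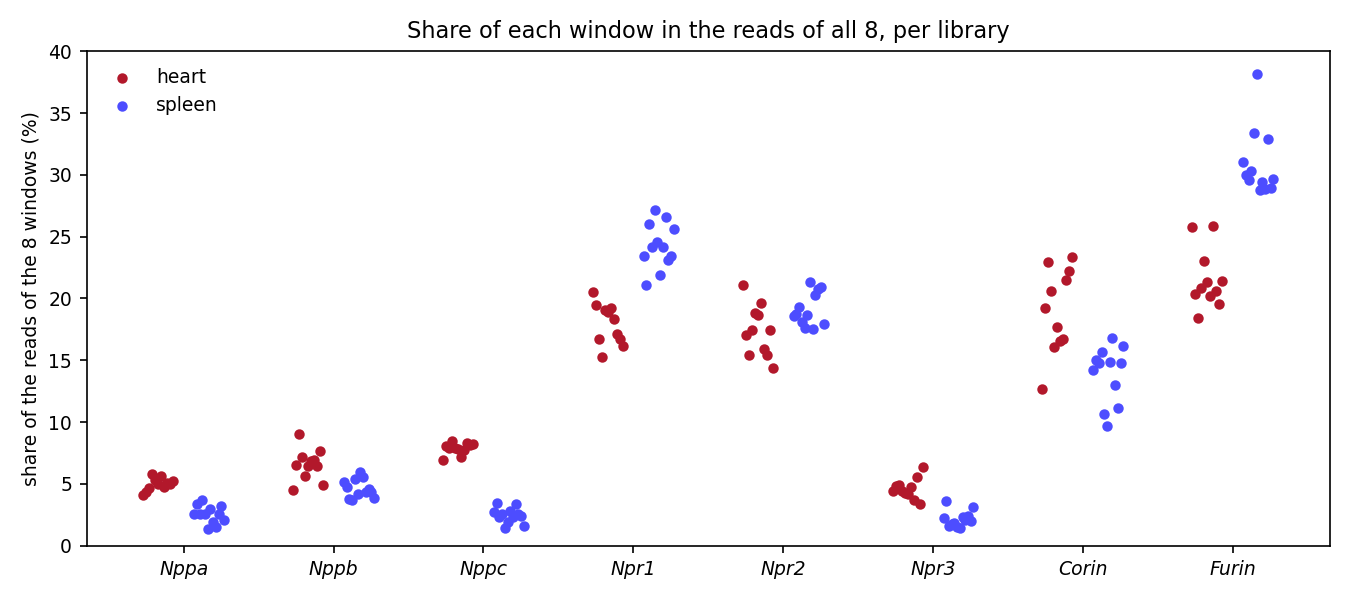
Share of the reads of the 8 member windows that each window takes, in percent, with heart left of spleen. Points are libraries. Nppc takes 6.95% to 8.47% in heart and 1.39% to 3.49% in spleen, and Furin 18.4% to 25.9% and 28.7% to 38.2%.

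With TMM scaling Nppa and Nppb, next to each other on chromosome 4, had opposite signs between the tissues. With library totals the sign at Nppb turned, and with cyclic loess neither window passed. Nppa made up 43.6% ± 4.88 of the reads of this pair in heart (n = 11, from 34.2% to 51.7%) and 35.0% ± 7.67 in spleen (n = 12, from 24.3% to 50%), so the ranges overlapped. By diet the spleen shares were 38.5% ± 3.62 on high fibre, 39.2% ± 8.28 on acetate and 27.3% ± 3.95 on control (n = 4 each). The control spleens ran from 24.3% to 33.1% and the high fibre spleens from 35.3% to 42.7%, while acetate spleens began at 32.1%. These spleen shares rest on 18 to 50 Nppa reads per library, and their differences between diets were not tested. How many other pairs of windows separate as far is not given here. In spleen edgeR called 0 of 24871 windows for high fibre minus control.

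Windows around the members were looked at next, the nearest gene with a window on each side, or the nearest 3 on each side of the Nppa and Nppb pair. Of 17 such windows tested in high fibre minus control hearts, 4 were lower and 1 higher, where 13.6% of all windows were lower and 12.6% higher, so 5 called of 17 lies near the share of all windows, 26.2%. Beside Nppa and Nppb, Plod1 (a collagen lysyl hydroxylase) was at -0.55, Agtrap (a protein that binds the angiotensin receptor) at -0.42 and Gm13201 at -0.36, while Clcn6, the gene next to Nppa, was at -0.42 with an edgeR adjusted p of 0.305. Fes, a tyrosine kinase gene 17.5 kb from Furin, was at -0.62 (edgeR adjusted p = 0.0107). Nfxl1, 55.1 kb from Corin, was at 0.66 (edgeR adjusted p = 0.00519). Ilf2, 10.3 kb from Npr1 and the nearest of all neighbours, was at -0.01, and Spag8, 21.7 kb from Npr2, at -0.30 (edgeR adjusted p = 0.433). With library totals the 4 lower windows turned sign, to between 0.072 and 0.33. The call at Gm13201 was lost in 7 of 11 fits that left out 1 heart library, those without control replicate 1, 3 or 4 or any one of the high fibre replicates (edgeR adjusted p up to 0.143), and with DESeq2 size factors, the DESeq2 test, cyclic loess and 1 surrogate variable. Without high fibre replicate 4 Plod1 (edgeR adjusted p = 0.0649) and Fes (edgeR adjusted p = 0.0509) failed too, and without control replicate 1 Plod1 (edgeR adjusted p = 0.06002) and Agtrap (edgeR adjusted p = 0.0510) failed. Agtrap also failed with cyclic loess, and with 1 surrogate variable Nfxl1 alone of these 5 passed.

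Other genes of the pathway were counted in lists, to be read against the 12.6% of all windows that were higher and the 13.6% lower on high fibre in heart. Of 7 tested windows of peptide processing and clearance (neprilysin and other peptidases and convertases) 2 were higher and 2 lower on high fibre in heart, with a median of 0.26. Of 10 other guanylyl cyclases, their ligands and endothelial nitric oxide synthase 0 were higher and 1 lower (median -0.13). Of 16 effectors of cyclic GMP and phosphodiesterases 5 were higher and 1 lower (median 0.14), and of 15 transcription factors known to act on Nppa and Nppb 2 were higher and 3 lower (median 0.11). The smallest p among them belonged to Mef2c, a myocyte transcription factor (0.75, edgeR adjusted p = 0.00496), Pde3b, a phosphodiesterase (0.68, edgeR adjusted p = 0.00595), and Pln, phospholamban, the brake on the calcium pump (1.40, edgeR adjusted p = 0.00626). With library totals as the scale 6 processing, 8 cyclase, 14 effector and 9 transcription factor windows were higher and 0 of any list lower. With 1 surrogate variable none of these list windows passed. On acetate 0 windows of the 4 lists passed in heart, and in high fibre minus acetate 1 did, Nos3 (endothelial nitric oxide synthase, -0.68, edgeR adjusted p = 0.0488), where 1.4% of all windows passed. The Nos3 call was lost in 8 of 11 fits that left out 1 heart library, those without acetate replicate 1, without control replicate 2, 3 or 4 and without any one of the high fibre replicates (-0.74 to -0.48, edgeR adjusted p up to 0.168). Between the tissues 4 and 2 of the 7 processing windows were higher and lower in heart, 4 and 5 of the 10 cyclases, 9 and 5 of the 16 effectors and 8 and 5 of the 15 transcription factors, where 49.1% of all windows were higher and 37.9% lower. With library totals these counts, in the same order, were 7 and 0, 8 and 0, 16 and 0, and 12 and 3. With TMM Srf, the serum response factor, was at -1.67, Rest, a repressor that binds the Nppa and Nppb genes, at -1.68, and Pde3b at 2.11.

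Finally, the windows whose levels ran most like each member over the 23 libraries were named from 10954 windows of above median abundance. Their log2 levels share library, depth and tissue with the member, so r is a description. Npr1 ran with Coro1c (r = 0.994), Fam129b and Git2, and Furin with Zfp553 (r = 0.993), Kdm6b and Ankrd13b. Npr2 ran with Tfeb (r = 0.985), C4b and Pck1. Nppc ran with Tns3 (r = 0.936), Nfatc1 and Lmo2. Corin was closest to Stxbp6 (r = 0.886), Crh and Sorbs2. The remaining matches were looser: Nppb with Tbcd (r = 0.786), Nppa with Ces4a (r = 0.763) and Npr3 with Inip (r = 0.745).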

How the data were processed

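Values are counts: reads per gene start window and library as the authors deposited them, raw and unpooled, with a table for each tissue. Per the submitters' processing notes, bcl2fastq 2.19.1.403, BWA 0.7.10, featureCounts 1.5.1, edgeR 3.16.5 and genome build GRCm38 were used. Handling of duplicate or multiply aligned reads and the placing of the 3 kb windows are not given in the sources used here.

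Members were matched by symbol. All 41388 windows entered the fits: edgeR 4.0.16 in R 4.3.3, quasi-likelihood test, TMM scaling, filterByExpr at a minimum count of 10, prior count 2, Benjamini-Hochberg adjustment over all tested windows at 5%. Within a tissue the 3 diets shared 1 fit, and a joint fit over 23 libraries gave the tissue comparisons. SE is the log2 difference at a smaller prior count, divided by the square root of the test's F value. The approximate 95% intervals are the printed difference plus or minus 1.96 SE. That multiple comes from the normal distribution, so the intervals can be narrower than the test implies. At Nppc, high fibre minus control in heart, the interval of -0.455 to -0.00079 left out 0 at an unadjusted edgeR p of 0.0571. The fits were tested on simulated counts. Alternatives were DESeq2 size factors and test, library totals, cyclic loess, no filter, a replicate block, 1 surrogate variable (sva) and leaving out each library. The members, lists, named neighbours and tests were chosen with earlier results of these data known, and named genes follow the rules given beside them. Members are few and chosen, so no test over them as a set was made. Shares of reads carry counting error, and PCR duplicates may make it larger.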

Additional observations from a re-analysis of the deposited data

Results flagged for a closer look

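Furin in spleen control replicate 1 stood at 77.2 CPM, while the other control spleens lay between 47.6 and 50.5 CPM, so 1 library is far from the others of its group. The same search covered 40 groups of 4 libraries (8 members, with heart acetate left out as a group of 3), and chance would pick about 1 in 20 groups. Spleen control replicate 1 also stood apart over all windows. Its chi-square per window, a measure of how far libraries differ, was 3.78 to 6.10 against the other control spleens. Among those others the measure was 1.68 to 2.29.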

How the results depend on the processing

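Of 8 members tested for high fibre minus control in heart, Npr1, Npr2 and Furin passed with TMM, DESeq2 size factors, the DESeq2 test, no filter and the replicate block. With cyclic loess Npr2 passed (-0.30) and so did Corin, as higher (0.35), but not Npr1 or Furin. The cause of each change listed here was not tested. Depth limits Nppa, Nppb, Nppc and Npr3 most, with as few as 14 reads per spleen library.

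Most sign changes came with library totals as the scale, which moved the median of all windows to 0.69 for high fibre minus control in heart and to 1.31 for heart minus spleen. Values of the opposite sign were Nppa 0.33, Nppb 0.49, Nppc 0.46, Npr1 0.20, Npr2 0.17, Npr3 0.64, Furin 0.20, Plod1 0.15, Gm13201 0.33, Agtrap 0.27 and Fes 0.072 for high fibre minus control in heart. They were Nppa 0.033, Nppb 0.068, Nppc 0.16, Npr1 0.074, Npr2 0.14, Corin 0.21 and Furin 0.089 for acetate minus control in heart. Also turned were Nppa 0.30, Nppb 0.42, Nppc 0.29, Npr1 0.13, Npr2 0.026, Npr3 0.40 and Furin 0.11 for high fibre minus acetate in heart. The one such value was Npr1 0.011 for high fibre minus control in spleen. Others were Nppb 0.070, Nppc 0.025, Npr1 0.13, Npr2 0.037, Corin 0.15 and Furin 0.13 for acetate minus control in spleen. To these came Npr1 -0.12, Npr2 -0.015, Npr3 -0.17 and Corin -0.11 for high fibre minus acetate in spleen. Between the tissues they were Nppb 0.88, Npr2 0.27, Corin 0.87, Gm13201 0.78, Agtrap 0.70 and Fes 0.12 for heart minus spleen. Last came Nppc 0.63, Npr1 0.19, Npr2 0.15, Npr3 0.35 and Furin 0.24 for the tissue difference in the high fibre effect.

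Sign changes with cyclic loess were Npr3 -0.0017 for acetate minus control in heart, Nppb 0.053 for high fibre minus acetate in heart, Nppc 0.011 for high fibre minus acetate in spleen, Npr3 -0.0020, Corin 0.44, Gm13201 0.20 and Agtrap 0.088 for heart minus spleen and Corin -0.0082 for the tissue difference in the acetate effect. With DESeq2 size factors they were Nppc 0.0038 for the tissue difference in the high fibre effect and Corin -0.0084 for the tissue difference in the acetate effect, and with the DESeq2 test Nppc 0.0028 for the tissue difference in the high fibre effect. Under 1 surrogate variable they were Npr3 0.15 for high fibre minus control in heart, Npr3 0.15 for high fibre minus acetate in heart, Npr1 0.0077 for high fibre minus control in spleen, Npr1 0.056 and Furin 0.10 for acetate minus control in spleen and Npr1 -0.048 for high fibre minus acetate in spleen. Without the filter on low counts they were Npr3 -0.00094 for acetate minus control in heart, Npr2 -0.0090 for high fibre minus control in spleen and Furin 0.013 for high fibre minus acetate in spleen.

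Counts of calls moved by over 1.5 times in these fits. With TMM and edgeR they were 8788 windows and 3 members for high fibre minus control in heart, 470 windows for high fibre minus acetate in heart, 19 for the tissue difference in the high fibre effect, 8 members for heart minus spleen, and 0 in the other cases named here. Library totals gave 24559 windows for high fibre minus control in heart, 1855 windows for high fibre minus acetate in heart, 1 member for high fibre minus acetate in heart, 6363 windows for the tissue difference in the high fibre effect and 1 member for the tissue difference in the high fibre effect. Cyclic loess gave 5724 windows for high fibre minus control in heart, 1 window for acetate minus control in spleen, 4 members for heart minus spleen and 109 windows for the tissue difference in the high fibre effect. DESeq2 size factors gave 0 windows for high fibre minus acetate in heart. The DESeq2 test gave 2516 windows for high fibre minus acetate in heart, 1 member for high fibre minus acetate in heart, 1 window for acetate minus control in spleen and 110 windows for the tissue difference in the high fibre effect. A fit with 1 surrogate variable gave 231 windows for high fibre minus control in heart, 0 members for high fibre minus control in heart, 17 windows for acetate minus control in heart, 19 windows for high fibre minus acetate in heart, 25 windows for acetate minus control in spleen and 7 windows for high fibre minus acetate in spleen. A fit without the filter gave 1256 windows for high fibre minus acetate in heart, 2 windows for acetate minus control in spleen and 1 window for high fibre minus acetate in spleen.

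The labels do not state whether same-numbered libraries belong together, and the main fits treated all libraries as independent. Deviations of same-numbered libraries correlated above 0.1 in 3 of 10 pairs between diets in heart, 5 of 12 in spleen and 5 of 11 between the tissues. For libraries of other numbers this was 6 of 30, 7 of 36 and 23 of 121 pairs. These correlations cannot decide whether heart and spleen libraries came from the same mice. With the replicate block, fits within a tissue gave 1 window for acetate minus control in heart, 2290 windows for high fibre minus acetate in heart and 1 window for acetate minus control in spleen, and the fit over both tissues gave 980 windows for the tissue difference in the high fibre effect. Signs turned under the block at Npr3 -0.031 for acetate minus control in heart, Npr2 -0.0011 for high fibre minus control in spleen and Npr3 -0.0099 for high fibre minus acetate in spleen and, over both tissues, at Nppb 0.11, Nppc -0.050, Npr1 0.12, Corin -0.048 and Furin 0.10 for the tissue difference in the acetate effect. Nppb in heart minus spleen was at -0.18 and no longer passed under that block. The block changed no other call of a member.

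Leaving out each library in turn gave 2495 to 14335 windows for high fibre minus control in heart, 0 to 4 members for high fibre minus control in heart, 0 to 694 windows for acetate minus control in heart, 0 to 4542 windows for high fibre minus acetate in heart, 0 to 3 members for high fibre minus acetate in heart, 0 to 2 windows for acetate minus control in spleen, 0 to 3 windows for high fibre minus acetate in spleen and 0 to 603 windows for the tissue difference in the high fibre effect. Some members changed sign in these fits: for high fibre minus control in heart this was Npr3 alone, at -0.17 to 0.11. Ranges for acetate minus control in heart were Npr1 -0.36 to 0.064, Npr2 -0.32 to 0.048, Npr3 -0.092 to 0.10, Corin -0.11 to 0.014 and Furin -0.37 to 0.015. In high fibre minus acetate in heart these were Nppb -0.13 to 0.13 and Npr3 -0.17 to 0.11. Ranges for high fibre minus control in spleen were Npr1 -0.094 to 0.058, Npr2 -0.084 to 0.10, Corin -0.049 to 0.13 and Furin -0.19 to 0.11. In acetate minus control in spleen these were Nppc -0.26 to 0.046, Npr1 -0.19 to 0.036, Corin -0.11 to 0.072 and Furin -0.16 to 0.12. Ranges for high fibre minus acetate in spleen were Nppc -0.24 to 0.091, Npr1 -0.050 to 0.18, Npr3 -0.10 to 0.18, Corin -0.0091 to 0.14 and Furin -0.13 to 0.082. In the tissue difference in the high fibre effect these were Nppb -0.048 to 0.23, Nppc -0.21 to 0.12 and Corin -0.025 to 0.14. Ranges for the tissue difference in the acetate effect were Nppb -0.18 to 0.11, Nppc -0.066 to 0.20, Npr1 -0.27 to 0.15, Npr2 -0.15 to 0.22, Corin -0.10 to 0.075 and Furin -0.28 to 0.13.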
